A study of Mus musculus with 4 samples.

Results

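The 6 transcription factor genes Pou4f1, Runx1, Neurod1, Casz1, Glis1 and Ebf1 were followed in spiral ganglion neurons of the adult mouse cochlea, out of 18143 genes in the deposited tables. They were chosen by name because their levels had been seen to differ between type I neurons in these same data, so their levels by population are given as a description without a test. The label under which they were grouped, graded across type I, held in its strict sense for Pou4f1. Neurod1 had the same order of means from very few molecules. Runx1 showed a single step that left type IA low. Glis1 was high in type IC alone among the type I subtypes, Casz1 was lowest there, and Ebf1 was lowest in type IB.

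The neurons came from 4 wild-type male CBA/CaJ mice aged 9 weeks, each of which gave 1 droplet library. No treatment or mutation was compared: the groups are the cell populations that the submitters named within every mouse, namely putative spiral ganglion neurons (505 cells), type II (95), type IC (2104), type IB (1625) and type IA (2384). Cells were dissociated from the modiolus, the central core of the cochlea. Reads were counted as unique molecular identifiers (UMIs), each of which stands for 1 captured RNA molecule. Levels are UMIs per 1000000 UMIs (CPM) of the summed cells of 1 population in 1 mouse, which makes 20 sums, and errors are SDs over the 4 mice.

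Type I neurons carry the signal of inner hair cells to the brain and differ in calcium-binding proteins, thresholds and spontaneous rates, whereas the rare type II neurons contact outer hair cells. Sensory neurons acquire such subtypes through transcription factors that act in combination, and many of these factors stay on in the adult. Pou4f1, also called Brn3a, is a POU homeodomain factor of sensory ganglia, and Runx1 is a Runt-domain factor needed in mice for one class of pain-sensing neurons. Neurod1 is a basic helix-loop-helix factor that inner ear neurons of the mouse need to survive development. Casz1 and Glis1 are zinc finger proteins, and Ebf1 is the early B cell factor that also works in neuronal differentiation.

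The libraries held 1238, 2232, 1720 and 1523 neurons from mice 1 to 4, with 15151343 to 27309045 UMIs. The median cell had 4725 UMIs among putative neurons, 10862 in type II, 14403 in type IC, 13334 in type IB and 12400.5 in type IA. Cell barcodes were shared between libraries in 26 cases. The defining markers of the type II population (Prph, Gata3, Th and Plk5) summed to 999.8 CPM there, against 37.8, 38.8 and 51.2 CPM in types IC, IB and IA. Markers of satellite glia and Schwann cells summed to 10675 CPM in putative neurons and 11232 CPM in type II, against 4425, 4437 and 4004 CPM in types IC, IB and IA. Fibroblast markers summed to 111, 108 and 106 CPM in types IC, IB and IA, and hair cell markers to 2.39, 2.35 and 2.10 CPM. Immune markers varied between mice far more than between these subtypes, for example from 57.7 to 418 CPM in type IC.

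On the GRCm38 build Pou4f1 lies at chr14:104461676-104467999, minus strand, and Runx1 at chr16:92601466-92826149, minus strand. Casz1 and Glis1 share a chromosome, at chr4:148804429-148954889 and chr4:107434591-107635061, both on the plus strand. Ebf1 lies at chr11:44617317-45008091, plus strand. Neurod1 lies at chr2:79452521-79456751, minus strand, inside the gene Cerkl, which is read from the same strand, so reads of these genes may have been divided by the counting and the Neurod1 values are uncertain. RefSeq start sites were found for all 6 genes. The stretches before the start sites of Pou4f1 and Glis1, the members with the steepest rise in type IC, are shown because they were the most GC-rich of the 9 promoters read, at 78.0% and 82.4%. They run from 250 bases before the start up to it, at chr14:104468000-104468249 and chr4:107434469-107434718 (RefSeq, GRCm38.p6), 5′ to 3′ on the strand of the gene.
Pou4f1: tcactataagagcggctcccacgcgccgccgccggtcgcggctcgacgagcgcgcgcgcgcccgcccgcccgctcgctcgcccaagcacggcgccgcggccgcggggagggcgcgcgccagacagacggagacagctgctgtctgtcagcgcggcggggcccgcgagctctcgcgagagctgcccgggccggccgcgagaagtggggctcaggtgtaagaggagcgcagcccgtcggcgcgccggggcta
Glis1: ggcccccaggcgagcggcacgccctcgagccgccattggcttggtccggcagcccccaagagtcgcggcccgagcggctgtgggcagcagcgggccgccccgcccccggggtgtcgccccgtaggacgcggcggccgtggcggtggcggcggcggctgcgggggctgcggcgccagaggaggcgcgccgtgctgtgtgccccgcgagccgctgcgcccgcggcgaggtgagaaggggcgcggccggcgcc
Motifs were searched on both strands from 250 bases before each start to 50 after it, as GCAT, NAN and TAAT in a row for POU4F factors, TGTGGT for RUNX, CAGATG for the E-box of NEUROD1, TCCC, NN and GGGA in a row for EBF and TGGGGGGT for GLIS. Only the RUNX letters were found, in the upstream promoter of Runx1 (at 29 and 37 bases after the start, both within the 30 bases shown, the second in lower case) and 12 bases before the upstream start of Ebf1. The 30 bases around the matches lie at chr16:92826029-92826058, minus strand, and chr11:44618076-44618105, plus strand, and capitals mark the match.
Runx1: acctcataaacaACCACAgaaccacaagtt
Ebf1: aaaaaaaaaatcTGTGGTtggcgttttttt
The RUNX letters occur in 16.8% of 32851 promoters of this length, the E-box in 17.2%, the GLIS letters in 1.53%, the EBF letters in 0.904% and the POU4F letters in 0.152%. A match is a description of these letters and not a bound site.

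Pou4f1 took 3 separate levels in type I. Its level was 166, 164, 161 and 178 CPM in type IC of mice 1 to 4, 31.5, 29.8, 32.8 and 28.7 CPM in type IB, and 8.54, 7.68, 8.42 and 7.50 CPM in type IA. No mouse of one subtype reached the range of another. Within a mouse the type IC level was 19.1 to 23.8 times the type IA level and 4.91 to 6.2 times the type IB level, and type IB stood 3.69 to 3.90 times above type IA. On the log2 scale of the model fitted to all genes, the difference was 4.34 ± 0.09 (SE) for type IC minus type IA. That span divided into 2.42 ± 0.07 for type IC minus type IB and 1.92 ± 0.13 for type IB minus type IA.

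Runx1 separated type IA from the other subtypes. It stood at 87.4, 87.3, 83.6 and 88.4 CPM in type IC, at 80.6, 74.2, 76.6 and 94.0 CPM in type IB, and at 11.7, 12.4, 12.9 and 12.3 CPM in type IA. The type IC and type IB ranges overlapped, with mouse 4 higher in type IB and the other 3 mice higher in type IC, and both lay far above type IA in every mouse. The log2 difference was 2.78 ± 0.09 for type IC minus type IA and 2.68 ± 0.09 for type IB minus type IA, but 0.10 ± 0.07 for type IC minus type IB.

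Neurod1 was scarce, with 143 UMIs in all type IC cells, 26 in type IB and 16 in type IA. Its level was 4.06, 4.92, 5.84 and 4.29 CPM in type IC, 1.51, 1.08, 1.16 and 1.04 CPM in type IB, and 1.16, 0.0985, 0.628 and 0.416 CPM in type IA. Type IC was highest in every mouse, while the ranges of type IB and type IA overlapped. The log2 difference was 3.09 ± 0.33 for type IC minus type IA and 1.10 ± 0.48 for type IB minus type IA.

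Casz1 ran the other way. It was at 12.4, 12.7, 15.7 and 12.7 CPM in type IC, at 41.2, 42.0, 46.4 and 53.0 CPM in type IB, and at 34.6, 34.3, 37.4 and 38.9 CPM in type IA. The type IC values lay below all other type I values, at 0.326 to 0.418 of the type IA level of the same mouse. Types IB and IA did not overlap either, although the gap was small: type IB was 1.19 to 1.36 times type IA within a mouse. The log2 difference was -1.45 ± 0.10 for type IC minus type IA, -1.75 ± 0.10 for type IC minus type IB and 0.30 ± 0.08 for type IB minus type IA.

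Glis1 was a type IC gene among the type I cells. Its level was 12.9, 9.61, 11.9 and 14.9 CPM in type IC, 0.566, 0.618, 0.995 and 1.31 CPM in type IB, and 0.723, 0.591, 0.503 and 0.416 CPM in type IA. The type IB and type IA values overlapped and rested on 18 and 17 UMIs. The log2 difference was 4.29 ± 0.23 for type IC minus type IA and 3.80 ± 0.24 for type IC minus type IB, against 0.50 ± 0.46 for type IB minus type IA.

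Ebf1 had its minimum in the middle. It reached 210.0, 212, 186 and 223 CPM in type IC, 112, 113, 89.2 and 114 CPM in type IB, and 169.9, 189, 137 and 184 CPM in type IA. Mouse 3 was the lowest in all 3 subtypes, so the type IC and type IA ranges overlapped, yet within each mouse type IC stood 1.12 to 1.35 times above type IA. Type IB lay below both in every mouse. The log2 difference was 0.27 ± 0.05 for type IC minus type IA, 0.95 ± 0.06 for type IC minus type IB and -0.68 ± 0.06 for type IB minus type IA.

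**Figure D1:**
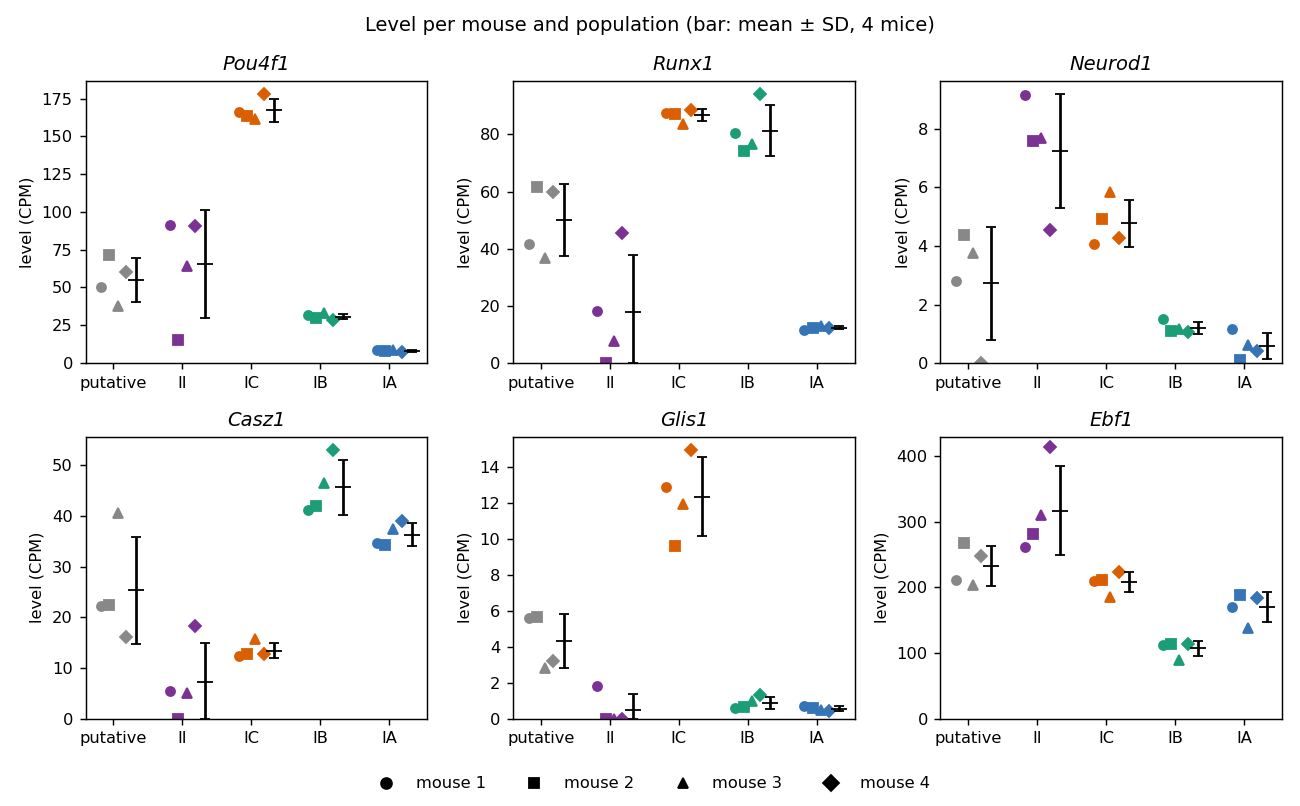
Level of each gene (CPM) in each population of each mouse, with a panel for each gene and a point for each mouse and population. Pou4f1 shows 3 separate levels across types IC, IB and IA, Runx1 is low in type IA alone among them (12.3 CPM on average), Casz1 is low in type IC (13.4 CPM) and Ebf1 dips in type IB (107 CPM).

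The populations differed in many genes, which sets the scale for these values. In the edgeR fit 4211 of 13335 genes (31.6%) had an adjusted p under 0.05 for type IC minus type IA, 15.2% for type IB minus type IA, and 11.4% for type IC minus type IB. All 6 genes passed that threshold in the comparison of type IC with type IA, Casz1 as the lower one and the other 5 as higher, and since they were chosen for this contrast nothing is read from that count. The populations were named from the same cells, so these tests do not stand apart from the naming. Without the mouse as a block, 2358 genes passed for type IC minus type IA.

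How far the low values stand above molecules carried over from other cells cannot be read from a non-neuronal population, since the tables hold neurons only. Whether UMIs of the type IC markers in types IB and IA were carried over was not tested, so these markers are a scale for comparison only. Lypd1 stood in type IB at 6.76 ± 0.974% and in type IA at 3.70 ± 0.597% of its type IC level of the same mouse (SD, n = 4). Grm8 stood at 9.46 ± 3.22% and 5.35 ± 0.807% in types IB and IA. Glis1 was within that range, at 6.98 ± 1.99% in type IB and 4.69 ± 1.51% in type IA. Pou4f1 in type IA, at 4.81 ± 0.466%, was also at that level. Pou4f1 in type IB (18.4 ± 1.77%), Runx1 in type IB (93.8 ± 8.99%) and Runx1 in type IA (14.2 ± 0.881%) stood above it. Unlike these markers, Runx1 was high in type IB as well, so they are a less close comparison for it.

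The type II population was high in Ebf1 and uneven in Pou4f1. Ebf1 was at 262, 281, 310.0 and 413 CPM in type II, above every type I value, and its log2 difference for type II minus the mean of the type I subtypes was 0.93 ± 0.10. It was as high, at 312 ± 53.7 CPM, in the 58 of 95 type II cells with a UMI of Prph, the peripherin gene that marks type II neurons. Pou4f1 was at 91.5, 15.2, 64.0 and 90.9 CPM in type II, so mouse 2 stood low and the values spread from below the type IB range to above the putative one. In the 58 cells with a Prph UMI only 14 of the 97 Pou4f1 UMIs were found, at 0, 12.2, 0 and 81.5 CPM in mice 1 to 4. The log2 difference for type II minus type I was 1.04 ± 0.20 with all cells, against -0.71 ± 0.44 with the Prph cells, so the direction of Pou4f1 in type II depended on which cells were kept. All 97 UMIs lay in the 57 cells with fewer than 3 UMIs of the glial gene Fabp7, and a single cell held 14 of them.

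Casz1 and Glis1 were low in type II, Runx1 was uneven, and Neurod1 was scarce. Runx1 was at 18.3, 0, 7.68 and 45.4 CPM in type II of mice 1 to 4. That range lay below types IC and IB and overlapped type IA. Runx1 had 23 UMIs in type II, 6 of them in 1 cell, and Casz1 had 9. Their log2 differences for type II minus type I were -1.38 ± 0.30 and -2.08 ± 0.40. Glis1 was represented by 1 UMI in mouse 1. Neurod1 had 10 UMIs in 9 cells, at 9.15, 7.59, 7.68 and 4.54 CPM, and 1 of the 10 lay in the cells with a Prph UMI. Its log2 difference for type II minus type I was 2.26 ± 0.63 with all cells and 0.03 with the Prph cells. For type II minus type I 23.8% of all genes passed the same threshold.

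In putative neurons, whose cells are shallow and rich in glial markers, Pou4f1 averaged 54.9 ± 14.5 CPM and lay between types IC and IB. Ebf1 averaged 233 ± 30.0 CPM. The remaining genes lay within or near the span of the type I subtypes, with Runx1 at 41.8, 61.8, 36.8 and 59.9 CPM, Casz1 at 22.3, 22.5, 40.5 and 16.1 CPM, and Glis1 at 5.57, 5.62, 2.83 and 3.21 CPM. The part of the glial content in these values was not tested.

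To compare cells at one depth, each cell was thinned at random to 4215 UMIs, which left out 237 putative, 5 type II, 126 type IC, 98 type IB and 205 type IA cells. At that depth a Pou4f1 UMI was seen in 50.0 ± 2.61% of type IC, 10.4 ± 0.799% of type IB and 3.07 ± 0.108% of type IA cells (SD, n = 4 mice). Without thinning the shares were 80.2%, 29% and 7.60%. Runx1 was seen in 30.7 ± 1.16% of type IC, 30.5 ± 1.52% of type IB and 4.30 ± 0.559% of type IA cells, or 65.5%, 60.7% and 13.0% without thinning. The order of subtypes was that of the levels for both genes.

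Ebf1 was the member seen in most cells, with 59.3 ± 2.64% of type IC, 33.2 ± 4.01% of type IB and 48.8 ± 2.78% of type IA cells at equal depth. Casz1 was seen in 5.07 ± 0.472%, 16.7 ± 2.30% and 14.7 ± 1.5% of these cells. Glis1 and Neurod1 were rare even where they were highest, at 4.80 ± 1.17% and 1.85 ± 0.679% of type IC cells. Without thinning, 16% and 5.81% of type IC cells had a UMI of these 2 genes. In type IB 4 of 1527 cells had a Glis1 UMI (0.0714 to 0.669%, exact 95% interval of the pooled share), and in type IA 5 of 2179 (0.0746 to 0.535%), intervals that cover counting error only.

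**Figure D2:**
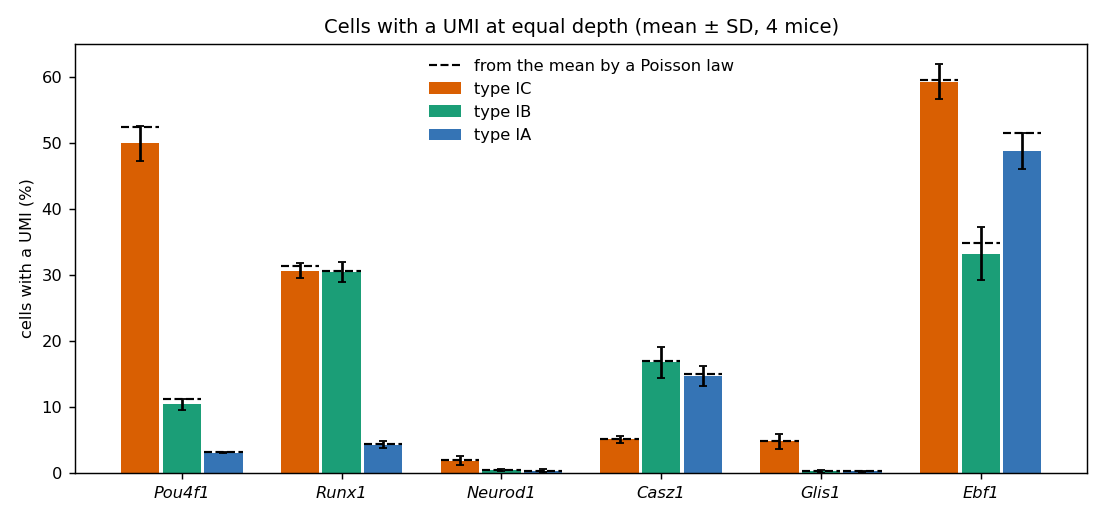
Percent of cells with at least 1 UMI of each gene in types IC, IB and IA, after every cell was thinned to 4215 UMIs. Bars are means over mice and error bars are SDs. Pou4f1 averages 50.0% in type IC, 10.4% in type IB and 3.07% in type IA, while Glis1 and Neurod1 average 4.80% and 1.85% in type IC and less in types IB and IA.

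The genes were chosen for their differing levels in type I, and all but Casz1 were higher in type IC than in type IA. A larger number of them per type IC cell follows from that choice, so the counts per cell are a description. A thinned type IC cell carried UMIs of 1.52 ± 0.0576 of the 6 genes, a type IB cell 0.916 ± 0.0563 and a type IA cell 0.715 ± 0.0317 (SD, n = 4 mice). No UMI of any of them was found in 12.9% of type IC, 34.5% of type IB and 40.6% of type IA cells. Without thinning, 3 type IC cells and 1 putative neuron held all 6.

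Pou4f1 and Runx1 occurred together in 301 of 1978 type IC cells (15.2%), 42 of 1527 type IB cells (2.75%) and 4 of 2179 type IA cells (0.184%). Over all type I cells without regard to subtype, their log2 odds ratio of joint detection was 0.82 ± 0.10 (SD, n = 4 mice). Within subtypes it was -0.08 ± 0.04, above 0 in 0 of 4 mice, with 347 cells holding both and 353.9 expected. Under another random thinning the within-subtype value was 0.18 ± 0.29, above 0 in 3 of 4 mice. The value over all type I cells takes in the difference between subtypes, since both genes were low in type IA.

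The other pairs with a large value over all type I cells also had smaller ones within subtypes. Pou4f1 with Glis1 had a log2 odds ratio of 1.53 ± 0.38 over all cells and -0.18 ± 0.44 within subtypes. Pou4f1 with Casz1, the pair of opposite pattern, had -1.14 ± 0.24 over all cells and -0.18 ± 0.33 within subtypes. Glis1 with Ebf1 had 0.61 ± 0.66 and 0.05 ± 0.57.

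The within-subtype values above 0 in all 4 mice were those of Runx1 with Casz1, at 0.35 ± 0.27 with 141 joint cells against 121 expected, and Runx1 with Ebf1, at 0.24 ± 0.17 with 589 against 559.7 expected. Each sat at the extreme of the 16 ways to flip the signs of 4 mice, the most that an exact two-sided permutation test can give, and the adjusted p over the pairs was 0.458. Pou4f1 with Runx1, below 0 in every mouse, sat at the extreme as well, with the same adjusted p by this test. Of the 15 pairs 11 had a value in every mouse, and no p of this sign-flip test can pass 0.05 with 4 mice. When cells were thinned to 7224 UMIs the values of Runx1 with Casz1 and with Ebf1 were 0.10 ± 0.20 and 0.02 ± 0.18, each above 0 in 2 of 4 mice. Under another draw to 4215 UMIs they were 0.36 ± 0.19 and 0.17 ± 0.10, each above 0 in 4 of 4 mice.

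**Figure D3:**
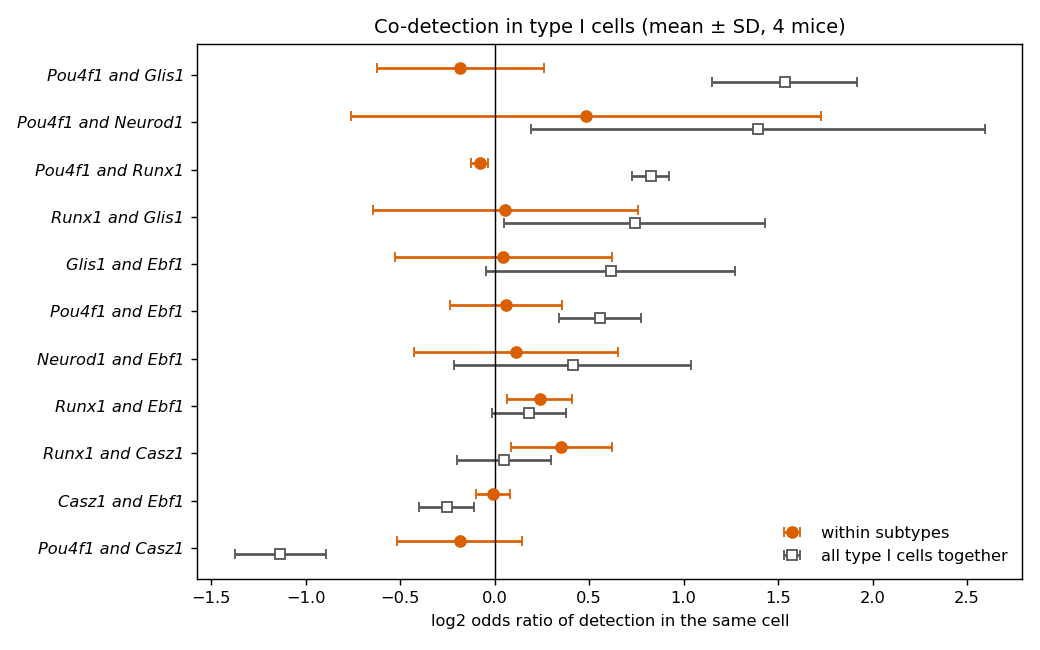
Log2 odds ratio of joint detection of pairs of the 6 genes in thinned type I cells, within subtypes and without regard to subtype. Markers are means over mice and error bars are SDs. Pou4f1 with Runx1 lies at 0.82 without regard to subtype and at -0.08 within subtypes.

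Cells of the same mouse and subtype were then divided into those with and those without a UMI of a given member, and the sums were compared across all genes. Of 25 values for one member in the division by another, 0 had an adjusted p under 0.05 by edgeR. Runx1 in cells with a Casz1 UMI stood 0.22 ± 0.13 higher on the log2 scale (adjusted p = 0.68), and Casz1 in cells with a Runx1 UMI 0.34 ± 0.14 higher (adjusted p = 0.565), both from edgeR. In the unthinned counts, where deeper cells are also more often positive, Runx1 in cells with a Casz1 UMI was 0.20 ± 0.05 higher with an adjusted p of 0.0198.

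Inside subtypes, 2 of 3 type IA markers, Calb2 and B3gat1, passed as lower in cells with a Pou4f1 UMI, and Rxrg did not pass (-0.32 ± 0.26, adjusted p = 0.973 by edgeR). Of 2 type IC markers, Lypd1 passed as higher and Grm8 did not pass (-0.25 ± 0.16, adjusted p = 0.964 by edgeR). Grm8 averaged 39.0 CPM in type IC cells with a Pou4f1 UMI and 44.4 CPM in those without, lower in 3 of 4 mice. Calb2, the calretinin gene that marks type IA neurons, fell in cells with a Pou4f1 UMI by 0.31 ± 0.04 on the log2 scale (adjusted p = 4.7e-12), with lower values in 4 of 4 mice. It averaged 663 ± 97.3 CPM in type IC cells with a Pou4f1 UMI and 809 ± 122 CPM in those without. In type IB it averaged 2189 ± 397 and 2457 ± 268 CPM, and in type IA 8495 ± 1690 and 9561 ± 711 CPM. Each type IC and type IB pair was lower in the cells with the UMI in 4 of 4 mice, and type IA in 3 of 4. Tested alone, type IC passed (adjusted p = 2.7e-07), and type IB and type IA did not (adjusted p = 0.907 and 0.0933), and the difference between subtypes was not tested. In all, 26 of 10899 genes (0.239%) passed in this division of cells, 15 of them higher (0.138%) and 11 lower (0.101%). The split was 21 higher and 3 lower with RLE size factors, and 10 higher and 2 lower under another random thinning.

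Lypd1, a type IC marker of the Ly6 family named here after its values were seen, rose with Pou4f1 by 0.20 ± 0.04 on the log2 scale (adjusted p = 0.00481). In type IB it averaged 298 ± 126 CPM in cells with a Pou4f1 UMI and 167 ± 21.1 CPM in those without, higher in 4 of 4 mice (0.82 ± 0.13 in type IB alone, adjusted p = 5.3e-06 by edgeR). In type IA the averages were 259 ± 278 and 101 ± 17.7 CPM, and mouse 3, at 659 CPM, carried much of the first; 3 of 4 mice were higher. In type IC the levels were 2947 and 2780 CPM, and the adjusted p in that subtype alone was 0.282. The Lypd1 difference over all subtypes missed the threshold when mouse 2 or mouse 3 was left out (adjusted p = 0.689 and 0.28) and with DESeq2. B3gat1, a type IA marker that encodes the enzyme of the HNK-1 carbohydrate, fell with Pou4f1 by 0.71 ± 0.15 (adjusted p = 0.00151). It averaged 158 CPM in type IA cells with a Pou4f1 UMI and 265 CPM in those without, and 21.4 and 36.9 CPM in type IB, each lower in 4 of 4 mice. Tested alone, no subtype passed for B3gat1 by edgeR (adjusted p = 0.946, 0.999 and 0.0965 in types IC, IB and IA). Over the alternatives tried its call was kept in 7 and lost in 7.

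Calb2 also fell with Runx1, by 0.15 ± 0.03 (adjusted p = 0.0021). Of the 3 type IA markers tested, Calb2 alone passed in this division. It averaged 8361 and 9577 CPM in type IA cells with and without a Runx1 UMI, lower in 4 of 4 mice, and 2408 and 2437 CPM in type IB, lower in 2 of 4. It missed the threshold without mouse 1 or mouse 2 (adjusted p = 0.281 and 0.137). The difference was smaller under another random thinning, 0.07 ± 0.03 lower (adjusted p = 0.572), whereas the Pou4f1 one was 0.33 ± 0.05 lower (adjusted p = 1.8e-09). Pooled over subtypes, glial markers summed to 4249 CPM in cells with and 4179 CPM in cells without a Pou4f1 UMI, and immune markers to 174 and 169 CPM. The 2 sides differ in subtype mix: 985 of 1211 cells with the UMI were type IC, and 2112 of 4473 without it were type IA. These sums therefore do not compare the marker content within a subtype.

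**Figure D4:**
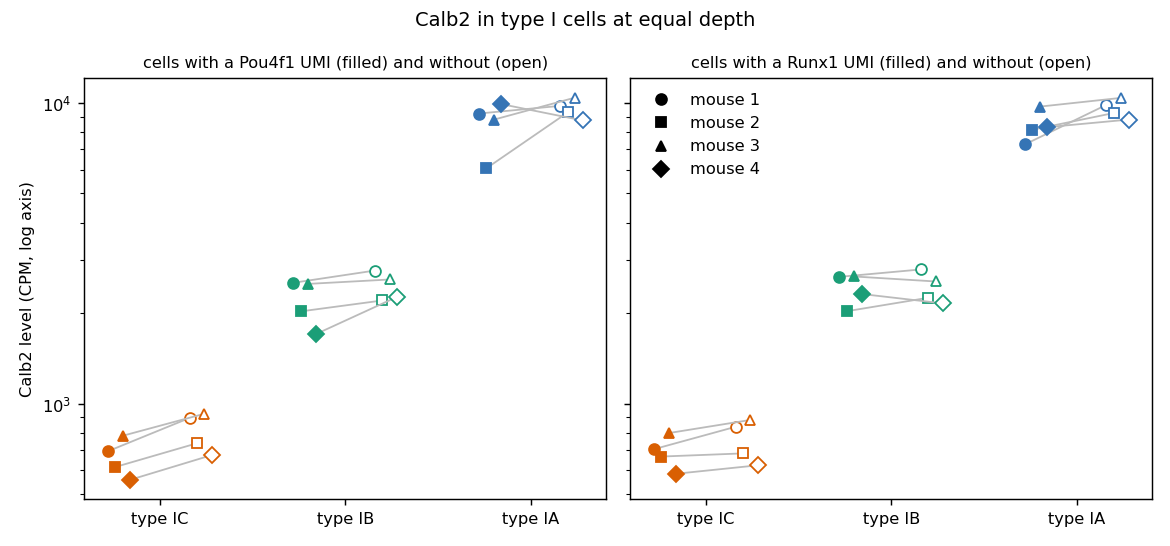
Calb2 level (CPM, log axis) in type I cells with a UMI of Pou4f1 (left) or Runx1 (right), filled, and without, open, at equal depth; lines join the 2 sums of 1 mouse. In type IC every mouse is lower in the cells with a Pou4f1 UMI, 663 against 809 CPM on average.

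Other genes passed with Pou4f1 as well. Lgr4, a receptor for R-spondins, was 0.65 ± 0.10 higher in cells with a Pou4f1 UMI (439 UMIs in those cells, adjusted p = 5.6e-07), and Lrrc8a, a subunit of the volume-regulated anion channel, was 0.46 ± 0.08 higher (adjusted p = 1.7e-05). Both were higher in 4 of 4 mice and lower in type IC than in type IA, against the direction of Pou4f1 itself. Both lost the call under another random thinning (adjusted p = 0.0528 and 0.111). Lyrm4 and Rbm15 were 0.61 and 0.60 higher, and Phf24 and Ptgds, a prostaglandin D2 synthase, 0.57 and 0.16 lower. The Phf24 value changed sign under another random thinning, at 0.010.

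The division by Runx1 gave 12 of 10060 genes (0.119%), 7 higher (0.0696%) and 5 lower (0.0497%). The split was 16 higher and 5 lower with RLE size factors, 5 and 11 under another random thinning, and 0 and 43 without a filter on low counts, and 0 genes passed without mouse 2. Kctd8, an auxiliary subunit of GABA-B receptors, was 0.36 higher, the ephrin receptor gene Epha4 0.32 higher and the long non-coding RNA Meg3 0.14 higher in cells with a Runx1 UMI, while Ldhb and Ppia were each 0.13 lower. Several of these changed sign under another setting. Kctd8 was at -0.0095 under another random thinning and -0.0059 when thinned to 7224 UMIs. Epha4 was at -0.028 when thinned to 7224 UMIs and -0.022 without thinning, where Meg3 was at -0.0047 and Ppia at 0.040.

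The division by Casz1 gave 39 of 9811 genes (0.398%), 20 higher and 19 lower. The count was 8 without mouse 1, 189 without a filter on low counts and 62 under another random thinning, and the split with RLE size factors was 24 higher and 2 lower. Among the genes that passed was Lgi2, a secreted synaptic protein, 0.43 ± 0.09 higher (adjusted p = 0.00435). Thsd7a was 0.45 higher, Smg1 0.44 higher and Rnf121 0.32 higher, and Chrac1 0.39, Ndufs8 0.21, Cd9 0.18 and Cox14 0.17 lower. Without thinning Rnf121 was at -0.080 and Ndufs8 at 0.0015, each with the sign changed. Pooled over subtypes, whose mix differs between the sides, glial markers summed to 3995 CPM in cells with and 4220 CPM in cells without a Casz1 UMI. Their part in these calls was not tested.

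The division by Ebf1, the member with the most positive cells, gave 175 of 10020 genes (1.75%), 70 higher (0.699%) and 105 lower (1.05%). The adhesion gene Cntn5 was 0.58 ± 0.11 higher in cells with an Ebf1 UMI (adjusted p = 0.000222), Cep250 0.66, Mccc1 0.53 and Katnbl1 0.51 higher, and Lhx1os 0.30, Pstk 0.27, Smim4 0.26 and Lsm7 0.22 lower. In type IC alone Smim4 was at 0.11, with the sign changed. The glial gene Pmp22, the erythroid gene Hba-a1 and Calb2 were among those lower. Calb2 alone passed among the 3 type IA markers tested in the division by Ebf1. For Neurod1 and Glis1, whose divisions used few positive cells, no gene had an adjusted p under 0.05 by edgeR, with 642 of 9376 and 564 of 9437 at an unadjusted p under 0.05. Of the differences named from these divisions, 4 kept their call under another random thinning, 25 lost it and 2 changed sign. Calb2 and Lypd1 with Pou4f1 were among those that kept it.

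The genes whose pattern over the 20 sums was most like that of a member were found by Pearson's r of log2 CPM among 11575 genes. For Pou4f1 the closest was Pcsk2, a prohormone convertase (r = 0.94), at 126 CPM in type IC, 40.7 in type IB and 13.8 in type IA, followed by Tmem47 and the glutamate receptor gene Grm8 (r = 0.90 each). Pcsk2 repeated the 3 levels of Pou4f1 with a smaller span. Runx1 was closest to Dph3 (0.96), the adhesion receptor gene Adgrl2 (0.94) and the semaphorin gene Sema4d (0.93, at 12.5, 8.32 and 2.23 CPM in types IC, IB and IA). Dph3 had a much smaller span than Runx1, at 134, 131 and 103 CPM in types IC, IB and IA. Casz1 was closest to Adssl1 (0.96), Arf6 (0.95) and Bcar3 (0.94). Within type I, Adssl1 and Arf6 were highest in type IA, at 40.9 and 102 CPM, whereas Casz1 and Bcar3 were highest in type IB.

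Glis1 was most like Tomt (0.91) and Cd164l2 (0.91, at 176, 22.5 and 19.3 CPM in types IC, IB and IA), then Tagln3 (0.88). Neurod1 was most like Gpbp1 (0.88), Slc10a7 and Fam32a (0.84 each), genes whose span over type I was small. Ebf1 was most like the secreted protease gene Htra1 (0.88), at 70.1 CPM in type IC, 27.7 in type IB and 60.4 in type IA, then Smarca1 (0.87) and Zeb2 (0.86). The sums share libraries and depth, and these values are descriptions. The ranks depended on the sums used. Over the 12 type I sums alone Grm8 ranked 89, Adgrl2 162, Bcar3 204 and Gpbp1 330. Htra1 ranked 1 there, and Pcsk2 and Cd164l2 each ranked 2. Over the alternatives tried, 37 values of r moved by more than the SD with 1 mouse left out, and 53 did not.

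Partners and relatives of the 6 genes were followed as lists. Of 16 basic helix-loop-helix genes tested, 5 were higher and 2 lower in type IC than in type IA at the threshold above (15.5% and 16.1% of all genes), with a median log2 difference of 0.04 against 0.00477 over all genes. The largest was Bhlhe22, a repressor of the Olig-related family, at 15.2 ± 0.978, 5.83 ± 1.02 and 1.31 ± 0.121 CPM in types IC, IB and IA (3.47 ± 0.17). It made 3 levels like those of Pou4f1. Tcf4, a ubiquitous dimer partner, was 0.72 ± 0.08 higher in type IC.

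Among 12 partners of RUNX proteins 5 were higher and 1 lower in type IC than in type IA (15.5% and 16.1% of all genes), with a median of 0.31. The corepressors Runx1t1 (0.80 ± 0.08), Cbfa2t3 (0.69 ± 0.14) and Tle4 (0.49 ± 0.08) were among the higher and Tle1 (-0.48 ± 0.13) the lower. Cbfa2t3 was highest in type IB, at 11.1, 16.5 and 6.62 CPM in types IC, IB and IA. In the comparison of type IB with type IA 5 of the 12 were higher and 0 lower, with 7.63% and 7.6% of all genes. For type IC minus type IB 2 were higher and 1 lower, with 5.53% and 5.91% of all genes.

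Among 17 POU and LIM homeodomain genes 5 were higher and 2 lower in type IC than in type IA (15.5% and 16.1% of all genes). Pou4f2, a close relative of Pou4f1, ran against it, at 28.9 ± 2.13 CPM in type IC, 42.2 ± 3.76 in type IB and 50.8 ± 6.58 in type IA (-0.82 ± 0.08). Lhx1 (0.85 ± 0.17) and Isl2 (0.56 ± 0.08) were higher in type IC. Of 5 genes of the EBF group, Zfp521, whose product binds and restrains EBF1, was 0.66 ± 0.06 lower and Zfp423 0.38 ± 0.09 higher. Of 13 partners and relatives of Casz1 and Glis1, Mbd3 was 0.19 ± 0.06 higher and Rbbp4 0.15 ± 0.05 lower.

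Of 32 other transcription factors of inner ear neurons 8 were higher and 11 lower in type IC than in type IA (15.5% and 16.1% of all genes). The chromatin organiser Satb1 was at 42.2, 28.7 and 18.5 CPM in types IC, IB and IA, and Maf, a leucine zipper factor of touch neurons in mice, at 186, 288 and 400.2 CPM. Tshz1 was 1.08 ± 0.10 higher and Sox11 0.85 ± 0.07 lower. Of 9 tested genes reported as targets of Pou4f1 or Runx1 in other sensory neurons, 3 were higher and 0 lower, beside the same shares of all genes: Avil, an actin-binding protein of sensory neurons (2.24 ± 0.27, at 8.79 CPM in type IC), Sncg (0.41 ± 0.08) and the neurotrophin-3 receptor gene Ntrk3 (0.23 ± 0.05). Inside subtypes no gene of these lists passed in the divisions by Pou4f1, Runx1, Neurod1 or Glis1. Tshz2 rose with Casz1 and with Ebf1, and Ntrk2, the BDNF receptor gene, rose with Ebf1.

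In type II 10 of the 16 basic helix-loop-helix genes were higher and 0 lower than in type I (11.6% and 12.2% of all genes), and so were 6 and 0 of the 9 sensory targets, which include the type II marker Th. Glial markers summed to 11232 CPM in type II, against 4425, 4437 and 4004 CPM in types IC, IB and IA. Over all genes 3176 passed for type II minus type I with all cells, and 1861 without the type II cells that held 3 or more Fabp7 UMIs. The part of the glial content in the counts of these lists was not tested.

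**Figure D5:**
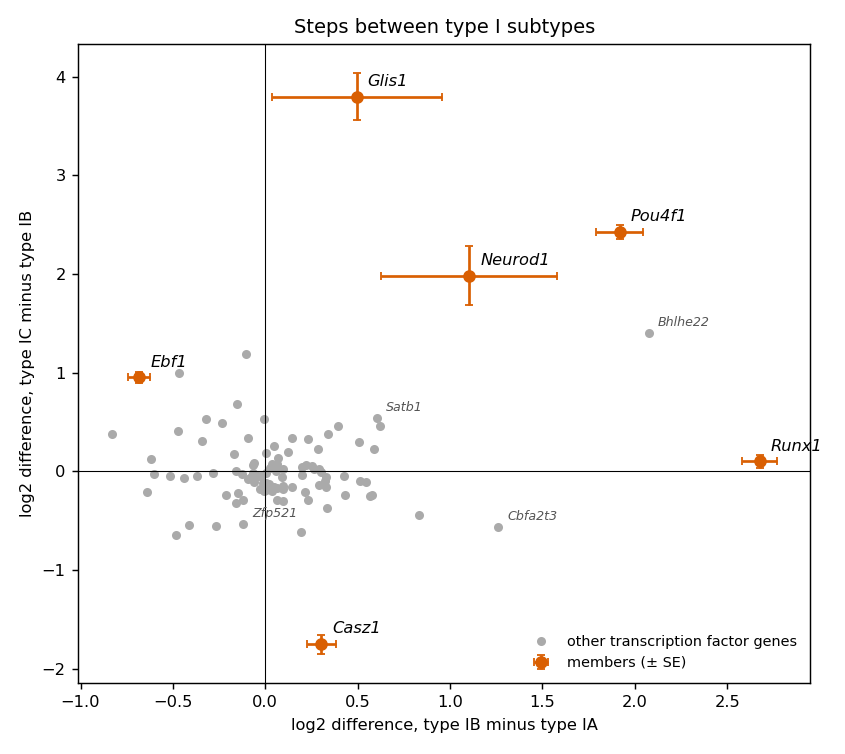
Log2 difference for type IC minus type IB against that for type IB minus type IA for the 6 genes (with SE) and the other transcription factor genes of the lists. Pou4f1 lies high on both axes (2.42 and 1.92), Runx1 on the horizontal one alone (0.10 and 2.68), Glis1 on the vertical one (3.80 and 0.50), and Casz1 and Ebf1 have steps of opposite sign.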

How the data were processed

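Single-cell RNA libraries of 4 mice were analysed from raw UMI counts per gene and cell that the authors deposited, with a deposited metadata table whose other columns name the library and the population of each cell. Cell Ranger 2.0.1, Seurat 1.4 and the build mm10 are named in the submitters' processing notes. How the populations were named and how doublets were treated is not stated in the sources used; no doublet caller was run and no cell was removed before summing. The 6 genes and all gene lists were chosen with earlier results of these data known.

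Counts were summed per mouse and population (20 sums), and log2 differences with SEs came from the quasi-likelihood test of edgeR 4.0.16 in R 4.3.3 with TMM scaling, edgeR's filter on low counts, the mouse as a block and Benjamini-Hochberg adjustment over all 13335 genes tested. The block follows from the design, since every mouse gave every population. For the division of cells by a UMI of a member, every cell was thinned to 4215 UMIs, the 10th percentile of depth, and sums with at least 5 cells on both sides were compared within mouse and subtype. Joint detection was measured by Mantel-Haenszel odds ratios over subtypes in each mouse. Fits were tested on simulated data with a true fold of 2. Between types IC and IA 198 of 200 changed genes were recovered, with 13 unchanged genes called among 12833. For the Pou4f1 division 186 of 200 were recovered, with 6 called among 10832. The differences named in the divisions were below a fold of 2, and recovery of such smaller changes was not tested. Besides the 6 genes, the text names the 3 genes of highest r for each, up to 4 higher and 4 lower genes past the threshold in each division that moved the same way in all mice, and up to 4 genes of each list with the largest difference among those past it. Genes outside this rule are Lypd1, Tshz2, Ntrk2, Pmp22 and Hba-a1, chosen after their values were seen. Results of some genes are not reported here. Python 3.11.15, pandas 2.3.3 and scipy 1.17.1 were used for the rest. Alternatives were no block, RLE size factors, DESeq2 1.42.0, no filter, each mouse left out, other thinning depths and draws, single subtypes and 318 cells per type I sum. P-values rest on 4 mice of 1 strain and sex. In the divisions over all subtypes, the 3 subtypes of a mouse entered as separate pairs of sums, up to 12 pairs. Those p-values therefore do not measure the spread over mice alone.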

Additional observations from a re-analysis of the deposited data

Results flagged for a closer look

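In 8 of 71 groups of 4 mice, the highest or lowest mouse stood apart from the others by more than Dixon's 95% critical value. Chance flags about 1 in 20 groups of independent, normally distributed values. Some groups here held a single value above 0, and levels and shares came from the same cells. The count therefore cannot be set against that rate. Among levels the flagged groups were Casz1 in type IC (mouse 3, at 15.7 CPM), Glis1 in type II (mouse 1, at 1.83 CPM from 1 UMI) and Ebf1 in type IB (mouse 3, at 89.2 CPM). Among shares of thinned cells they were Pou4f1 in type IC (mouse 4, at 53.8%), Casz1 in type IC (mouse 2, at 4.37%) and Pou4f1 in type II (mouse 2, at 0.0%, against 13.0%, 12.1% and 14.3% in mice 1, 3 and 4). Casz1 in type II (mouse 3, at 6.06%) and Glis1 in type II (mouse 1, at 4.35%) rested on 2 cells and 1 cell.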

How the results depend on the processing

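Over the alternatives tried, the log2 differences of the 6 genes between populations stayed on the same side of zero and of the threshold in 216 values. In 5 they lost the call, and in 1 the sign changed: Pou4f1 for type II minus type I became -0.71 when type II cells without a Prph UMI were left out, an alternative chosen after seeing the data. For type IC minus type IA the ranges were 4.24 to 4.38 for Pou4f1, 2.71 to 2.82 for Runx1, 2.59 to 3.75 for Neurod1, -1.51 to -1.40 for Casz1, 4.15 to 4.83 for Glis1 and 0.23 to 0.31 for Ebf1. Without the replicate block the Ebf1 difference of 0.27 missed the threshold (adjusted p = 0.0739), and 2358 genes passed in place of 4211 for type IC minus type IA. Leaving out 1 mouse gave 3091 to 3842.

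The counts of genes in the divisions of cells depended on the setting, and the cause was not tested. For Pou4f1 the count of 26 became 6 with DESeq2, 277 without thinning, 12 in another draw, 1 in type IB alone, 2 in type IA alone and 10 to 27 with 1 mouse left out. For Runx1 the count of 12 became 21 with RLE size factors, 43 without a filter, 239 without thinning, 6 when thinned to the 25th percentile, 3 in type IB alone, 0 in type IA alone and 0 to 13 with 1 mouse left out (0 without mouse 2). For Neurod1 the count of 0 became 7 without a filter, 30 without thinning and 1 at the 25th percentile. For Casz1 the count of 39 became 20 with mouse as the replicate block and subtype as a term, 189 without a filter, 82 without thinning, 19 at the 25th percentile, 62 in another draw, 1, 11 and 5 in types IC, IB and IA alone, and 8 to 22 with 1 mouse left out (8 without mouse 1). For Glis1 the count of 0 became 1 with RLE size factors, 11 without a filter, 2 without thinning and 2 in another draw. For Ebf1 the count of 175 became 97 with mouse as the replicate block, 99 with DESeq2, 343 without thinning, 76 at the 25th percentile, 90 in another draw, 28, 3 and 5 in types IC, IB and IA alone, and 69 to 136 with 1 mouse left out (69 without mouse 3).

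Single genes of the divisions kept their call in 148 values, lost it in 276 and changed sign in 10. The reversed ones were Phf24 (0.010 in another draw), Kctd8 (-0.0095 in another draw and -0.0059 at the 25th percentile), Epha4 (-0.022 without thinning and -0.028 at the 25th percentile), Meg3 (-0.0047), Ppia (0.040), Rnf121 (-0.080) and Ndufs8 (0.0015) without thinning, and Smim4 (0.11 in type IC alone). Calb2 with Pou4f1 kept its call except in type IB alone and type IA alone. Depth limits Neurod1 and Glis1 outside type IC, where under 30 UMIs stand behind each population, and type II, with 95 cells.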
